A study of Homo sapiens with 6 samples.

Results

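The genes described here are 50 chaperone, co-chaperone and heat shock genes, chosen by symbol from the 57659 genes of the count files. All 50 were found by Ensembl identifier. They were measured in IMR90, a line of primary human fetal lung fibroblasts grown in serum-containing medium, as total RNA depleted of ribosomal RNA. The 3 control libraries came from cells that express a short hairpin RNA (shRNA) against luciferase, an insect gene with no human counterpart. The 3 knockdown libraries came from cells that express an shRNA against macroH2A1, a histone H2A variant with a large globular domain. The series calls the 3 libraries of a group biological replicates, and the labels name no separate donors. The labels do not say how the hairpins were delivered. All libraries share the 1 cell line, so p-values measure the spread between these libraries, which may be partly technical. Although the genes were grouped as cytosolic chaperones, the products of TRAP1, HSPA9, HSPD1 and HSPE1 work in mitochondria and that of HSPA13 in microsomes.

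Chaperones bind unfolded or partly folded proteins and keep them from clumping while they fold. HSP70 proteins bind short exposed stretches in a cycle driven by ATP, which J-domain proteins (DNAJ) start and nucleotide exchange factors such as HSP110 and BAG proteins end. HSP90 receives partly folded clients such as kinases and steroid receptors from HSP70 through co-chaperones. The ring-shaped chaperonin CCT, also called TRiC, folds actin and tubulin, and small heat shock proteins hold unfolding proteins without using ATP. Heat shock factor 1 (HSF1) raises many of these genes under stress by binding heat shock elements, inverted repeats of the letters GAA, in their promoters. Fibroblasts make large amounts of cytoskeletal and secreted protein, and the constitutive chaperones are among their abundant transcripts.

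Promoter sequences were searched for this element because the genes are known for a shared regulator. RefSeq windows of 300 bases (250 before the annotated start and 50 after it, build GRCh38.p14) matched 43 of the 50 genes, and CCT6A, CRYAB, FKBP4, HSF1, HSPA14, ST13 and STUB1 had none. The short forms searched were GAANNTTC and TTCNNGAA, which each read the same on both strands. The long form has 3 units, GAA, TTC and GAA with 2 bases of any kind between neighbours, or its reverse complement on the other strand, and so holds both short forms. The long form was found in 4 of 43 windows of these genes (9.30%). It was found in 172 of all 35116 windows (0.490%) and in 29 of 8803 windows of genes tested for a change (0.329%). A short form was in 13 of 43 (30.2%), against 13.5% of all windows and 10.1% of those of genes tested. At most 1 window was searched per chaperone gene, so a match at another start would be missed. Among the genes past the test threshold given with the results, only the window of HSPA8 held the long form. It is shown whole, from chr11:123062087-123062386 on the minus strand, with the 2 matches in capitals.
HSPA8: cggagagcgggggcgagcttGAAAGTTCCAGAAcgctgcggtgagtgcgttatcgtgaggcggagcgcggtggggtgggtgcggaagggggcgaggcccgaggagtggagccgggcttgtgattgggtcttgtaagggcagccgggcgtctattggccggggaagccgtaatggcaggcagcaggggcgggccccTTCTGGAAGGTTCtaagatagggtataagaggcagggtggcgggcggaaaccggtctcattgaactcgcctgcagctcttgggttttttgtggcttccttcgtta
The other 3 windows with the long form belong to genes that did not pass the test, and the stretches around the matches are shown to set them beside that of HSPA8. They lie at chr11:90223075-90223121 (minus strand) for CHORDC1, where 3 matches overlap, at chr9:33025264-33025300 (plus) for DNAJA1 and at chr7:157336861-157336897 (plus) for DNAJB6. The stretch for HSPB1, at chr7:76302479-76302510 (plus), has a short form in capitals and is shown because HSPB1 is the only other gene past the threshold with any match.
CHORDC1: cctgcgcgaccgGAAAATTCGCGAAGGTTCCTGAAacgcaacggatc
DNAJA1: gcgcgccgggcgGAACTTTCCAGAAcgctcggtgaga
DNAJB6: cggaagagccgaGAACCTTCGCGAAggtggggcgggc
HSPB1: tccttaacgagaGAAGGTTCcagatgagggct
A match is a description of the letters in these windows and not a bound site. Genes past the threshold held the long form in 1 of 13 windows and tested genes not past it in 3 of 28. A short form was in 2 of 13 (15.4%) and in 11 of 28 (39.3%) of these windows. Whether these shares differ was not tested. Only exact matches were counted, so a window without a match may still hold an imperfect element.

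Libraries held 3741087 to 6421605 reads assigned to genes, so that 3 counts correspond to 0.467 to 0.802 counts per 1000000 gene counts (CPM). Between 64.4% and 68.8% of the reads listed for a library had no unique alignment and were not counted. Their share was 67.6% to 68.8% in the control and 64.4% to 66.6% in the knockdown libraries. Reads outside annotated features made up 8.34% to 9.43% in the control and 10.6% to 11.3% in the knockdown libraries, again without overlap, and the part of both shares in the results was not tested. The targeted gene MACROH2A1 lay between 84.8 and 92.1 CPM in the control and between 39.0 and 43.7 CPM in the knockdown libraries, and it fell to 46.3% of its control level (edgeR adjusted p = 0.000917). Of 12 fibroblast markers 11 passed the filter on low counts, with summed levels of 7507 to 8566 CPM in control and 12003 to 12747 CPM in knockdown libraries, and 5 of them rose. Markers of other cell types were low: 10 epithelial markers summed to 27.4 to 29.7 CPM in control and 7.52 to 11.8 CPM in knockdown, 8 endothelial markers to 60.8 to 65.4 and 137 to 145 CPM, and 11 blood markers to 14.2 to 19.3 and 14.5 to 16.5 CPM. Of 2 tested endothelial markers 2 rose, of 2 tested epithelial markers 1 fell, and of 2 tested blood markers 0 passed the test. SFTPB, SCGB1A1, PECAM1, EMCN, CD3E, MS4A1 and HBA1 had 0 counts in all 6 libraries. The part of these marker differences in the chaperone values was not tested, and in bulk RNA fewer cells of a type and less RNA per cell cannot be told apart.

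More of the chaperone genes fell than rose in the macroH2A1 knockdown, and the larger number did not pass the test. Of the 50 genes, 47 passed the filter on low counts. Of those, 13 fell and 1 rose (edgeR quasi-likelihood test with p-values adjusted over 13445 genes by Benjamini-Hochberg, threshold 0.05). The genes that fell were HSP90AA1, HSP90AB1, HSPA4, HSPA4L, HSPA8, HSPH1, HSPD1, HSPB1, DNAJB4, PTGES3, CDC37, CCT2 and CCT6A, and the gene that rose was HSPA2. Among all genes tested, 4.31% fell and 3.90% rose, and among protein-coding genes 5.24% and 4.40%. Calls are more frequent among abundant genes, and among the 3362 most abundant of all genes tested 10.6% fell and 6.63% rose. Among those 3362 were 26 of the 47 chaperone genes, of which 11 fell and 1 rose, against 2 that fell among the 21 less abundant ones. A negative fold change was found for 40 of the 47 (85.1%), against 49.2% of all genes tested and 58.8% of the 3362 most abundant. The median log2 fold change of the 47 was -0.29, where all genes tested had a median of 0.01 and the 3362 most abundant one of -0.06. Control and knockdown libraries did not overlap for 28 of the 47 genes with the knockdown lower and for 1 with it higher, against 15.9% and 14.5% of all genes tested, and 30.2% with the knockdown lower among the 3362 most abundant.

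The change was moderate in size. Log2 fold changes of the 14 genes ran from -1.03 (DNAJB4) to 0.84 (HSPA2), and DNAJB4 alone among the genes that fell was below 50% of its control level. All reads assigned to the 50 genes together made up 0.539%, 0.535% and 0.537% of the gene counts in control libraries, against 0.397%, 0.440% and 0.426% in knockdown libraries. Every control library thus lay above every knockdown library. HSPA8, HSP90AB1 and HSP90AA1 supplied 45.8% to 46.8% of these reads in control and 43.4% to 44.1% in knockdown libraries. Without these 3 genes, the other 47 made up 0.286% to 0.292% of gene counts in control and 0.225% to 0.246% in knockdown libraries, so the groups did not overlap there either.

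**Figure D1:**
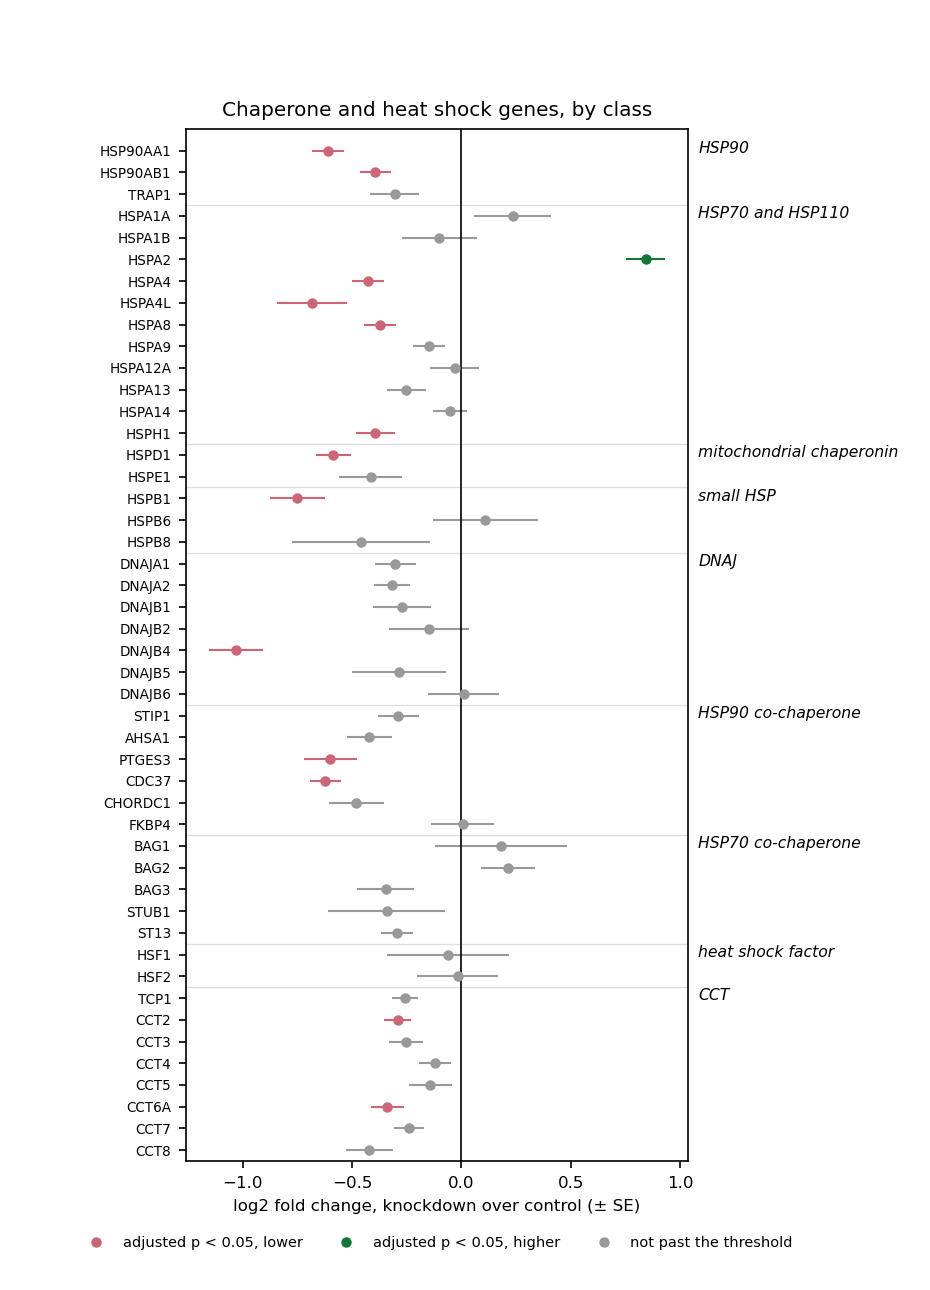
Log2 fold change of knockdown over control (x axis, points with standard errors) for the 47 tested chaperone and heat shock genes, grouped by class. Of the points, 40 lie left of 0; the 13 genes that fell are red, HSPA2, the gene that rose, is green, and the 33 others are grey.

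**Figure D2:**
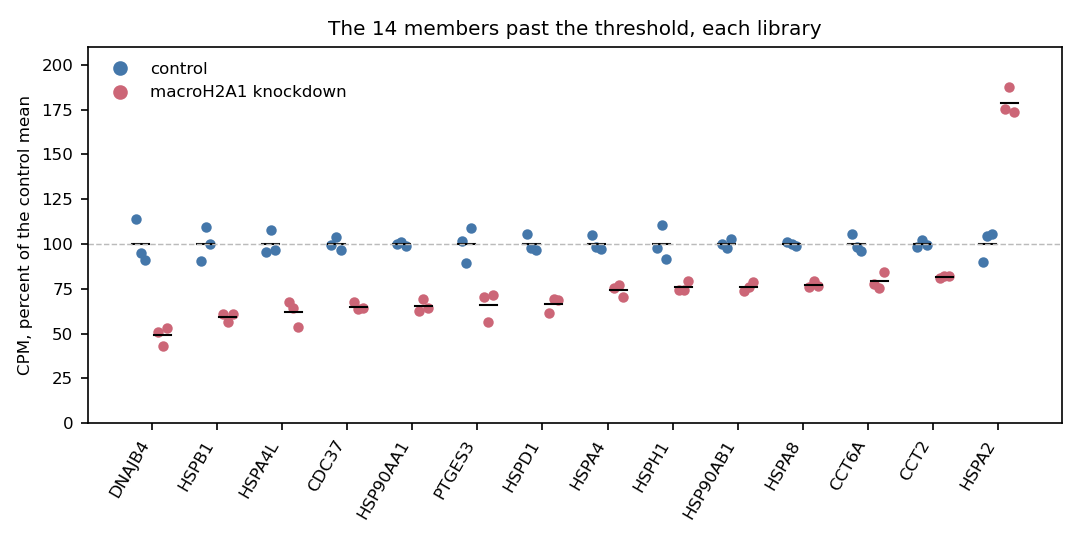
CPM of each library as a percentage of the control mean (y axis, points; black bars are group means, n = 3) for the 14 genes past the threshold, ordered by fold change. In each of the 14 genes the control and knockdown libraries do not overlap, and DNAJB4 and HSPA2 lie farthest from 100%. The genes passed a test on these same libraries, so the lack of overlap adds no support. Among all genes tested 15.9% were lower and 14.5% higher without overlap.

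Both cytosolic HSP90 genes fell, and the stress-inducible form fell further. HSP90AA1, the inducible isoform, stood at 496, 501 and 490 CPM in the control libraries and at 311, 343 and 319 CPM in the knockdown libraries. The groups lay far apart, with a control spread of 5.53 CPM (SD, n = 3), and the log2 fold change was -0.61 (SE 0.07, edgeR adjusted p = 0.00525). HSP90AB1, the constitutive isoform, stood at 647, 633 and 666 CPM in control and 478, 494 and 510 CPM in knockdown libraries. Here too the groups did not overlap, and the log2 fold change was -0.39 (SE 0.07, edgeR adjusted p = 0.0216). Per kb of transcript, HSP90AB1 was the more abundant of the pair, with 243 CPM per kb in control and 185 in knockdown against 147 and 96.0 for HSP90AA1. TRAP1, the mitochondrial HSP90, had 30.7, 32.5 and 34.1 CPM in control and 22.5, 29.1 and 27.1 CPM in knockdown libraries. Its groups did not overlap, but the log2 fold change of -0.30 (SE 0.11) did not pass (edgeR adjusted p = 0.155). By GENCODE 29, 29.3% of the exon bases of TRAP1 overlap a gene on the opposite strand, so its counts are uncertain.

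The unequal change of the HSP90 pair can be read within each library, where no scaling enters. Reads of HSP90AA1 per read of HSP90AB1 were 0.767, 0.791 and 0.735 in control, against 0.650, 0.695 and 0.626 in knockdown libraries. All 3 control ratios lay above all 3 knockdown ratios, the complete separation that gives p = 0.1 in a two-sided exact permutation test, the smallest p that 3 libraries against 3 allow. This pair and the 3 others set against each other were chosen with earlier results known. HSP90AA1 kept its call when any 1 library was left out, while HSP90AB1 lost it whichever library was left out (adjusted p from 0.068 to 0.0831).

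**Figure D3:**
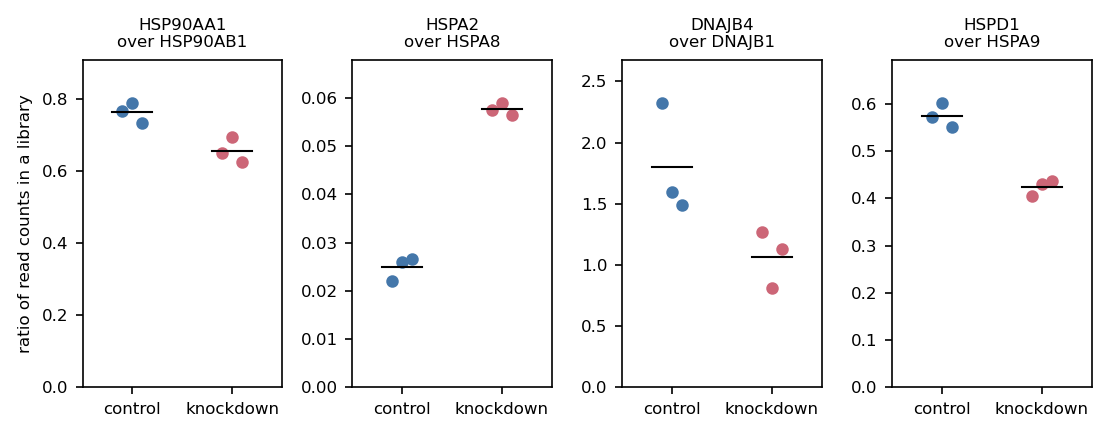
Ratio of the read counts of 2 genes within a library (y axis, from 0), for control and knockdown libraries (points; bars are means, n = 3). The 3 control and 3 knockdown points do not overlap in any of the 4 panels; HSPA2 over HSPA8 is the ratio that is higher in the knockdown.

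In the HSP70 and HSP110 class, 4 of 11 genes fell, 1 rose and 6 did not pass. HSPA8, the constitutive cytosolic HSP70 and the most abundant gene of the whole set per kb of transcript, stood at 1364, 1344 and 1329 CPM in control and at 1023, 1065 and 1031 CPM in knockdown libraries. Every control library lay above every knockdown library, and the log2 fold change was -0.37 (SE 0.08, edgeR adjusted p = 0.0315). HSPA4, an HSP110 protein that exchanges nucleotide on HSP70, had 270, 253 and 249 CPM against 195, 198 and 182 CPM (log2 fold change -0.43, SE 0.07, edgeR adjusted p = 0.017). HSPH1, the inducible HSP110, had 83.1, 93.7 and 77.7 CPM against 63.1, 63.1 and 67.5 CPM (log2 fold change -0.39, SE 0.09, edgeR adjusted p = 0.0439). HSPA4L, the third HSP110 gene, was much scarcer, at 10.9, 12.3 and 11.1 CPM against 7.71, 7.39 and 6.16 CPM (log2 fold change -0.68, SE 0.16, edgeR adjusted p = 0.0485). All 3 HSP110 genes thus fell with HSPA8, and in each the control and knockdown libraries did not overlap. All 4 of these calls were lost whichever 1 library was left out, with adjusted p from 0.0686 to 0.111 for HSPA8 and from 0.0508 to 0.0743 for HSPA4, from 0.0545 to 0.128 for HSPH1 and from 0.0962 to 0.137 for HSPA4L.

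HSPA2 was the gene of the set that rose. It encodes an HSP70 best known from the testis, where it is needed for sperm development, and it is also made at lower levels in other tissues. Its level was 30.1, 35.0 and 35.4 CPM in control and 58.7, 62.8 and 58.1 CPM in knockdown libraries. Every knockdown library lay well above every control library, and the mean went from 33.5 ± 2.98 to 59.9 ± 2.56 CPM (SD, n = 3 per group), a 1.79-fold rise (log2 fold change 0.84, SE 0.09, edgeR adjusted p = 0.00356). Reads of HSPA2 per read of HSPA8 were 0.0220, 0.0260 and 0.0267 in control and 0.0575, 0.0590 and 0.0564 in knockdown libraries. Since both genes had groups without overlap, in opposite directions, the separation of this ratio follows from them and is given as a description, with no test. HSPA2 remained the minor gene: per kb it stood at 11.1 CPM in the knockdown, against 422 for HSPA8.

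The heat-inducible HSP70 genes HSPA1A and HSPA1B, near-identical neighbours on chromosome 6, did not pass. HSPA1A had 9.49, 10.3 and 7.14 CPM in control and 10.7, 10.2 and 11.0 CPM in knockdown libraries, with overlapping groups (log2 fold change 0.23, SE 0.18, edgeR adjusted p = 0.472). HSPA1B had 10.1, 10.1 and 9.78 CPM against 9.69, 7.61 and 10.7 CPM, which overlap as well (log2 fold change -0.10, SE 0.17, edgeR adjusted p = 0.77). Since reads that align to both copies were not counted, both values are uncertain and lie below the true level by an unknown amount. The remaining 4 genes of the class also did not pass: HSPA9, the mitochondrial HSP70, with a log2 fold change of -0.15 (SE 0.07), HSPA13 with -0.25 (SE 0.09), the ribosome-associated HSPA14 with -0.05 (SE 0.08) and the divergent HSPA12A with -0.03 (SE 0.11).

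The mitochondrial chaperonin is built of HSPD1 (HSP60), which forms its rings, and HSPE1 (HSP10), its lid. HSPD1 fell from 115, 107 and 106 CPM in control to 67.4, 76.1 and 75.5 CPM in knockdown libraries (log2 fold change -0.59, SE 0.08, edgeR adjusted p = 0.00848), with no overlap and a call that held when any 1 library was left out. HSPE1, which shares a promoter region with HSPD1 and is read in the other direction, had 19.6, 21.9 and 16.1 CPM against 14.4, 15.4 and 13.4 CPM. Its groups did not overlap, but the log2 fold change of -0.42 (SE 0.14) did not pass (edgeR adjusted p = 0.131). By the GENCODE 29 annotation 14.2% of the exon bases of HSPE1 overlap HSPD1 on the opposite strand and 9.71% a read-through gene on its own strand, so its counts are uncertain. Reads of HSPD1 per read of HSPA9, the mitochondrial HSP70, were 0.572, 0.603 and 0.552 in control and 0.406, 0.432 and 0.436 in knockdown libraries, without overlap (two-sided exact permutation p = 0.1). Named pseudogene copies of HSPD1, of which there are 18 in the files, took 388 reads in the control and 353 in the knockdown group, beside 1600 and 973 for HSPD1 itself.

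Of the small heat shock proteins, 1 of 3 tested genes fell. HSPB1, which binds unfolding proteins and actin filaments, had 16.8, 20.3 and 18.5 CPM in control and 11.3, 10.4 and 11.3 CPM in knockdown libraries. The knockdown libraries lay within 1 CPM of each other and below every control library (log2 fold change -0.75, SE 0.13, edgeR adjusted p = 0.0163). The call held without control replicate 1 and was lost without any other library, at adjusted p up to 0.0631. HSPB6 and HSPB8 did not pass and their groups overlapped, with log2 fold changes of 0.11 (SE 0.24) and -0.46 (SE 0.31). The counts of HSPB6 are uncertain, since 38.2% of its exon bases overlap a gene on the opposite strand. CRYAB, the alpha-B crystallin gene, was below the filter at 3 to 7 counts per library, and HSPB7 had at most 1 count in any library.

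Among J-domain genes, 1 of 7 tested fell, and by the largest factor of the set. DNAJB4, a J-domain partner of HSP70, had 81.0, 67.4 and 64.5 CPM in control and 36.2, 30.4 and 37.8 CPM in knockdown libraries. The lowest control library was far above the highest knockdown library, and the level fell to 49.0% of control (log2 fold change -1.03, SE 0.12, edgeR adjusted p = 0.00546). Its close relative DNAJB1, the main heat-inducible J-domain gene, had 34.8, 42.3 and 43.3 CPM against 28.5, 37.6 and 33.5 CPM, with overlapping groups (log2 fold change -0.27, SE 0.13, edgeR adjusted p = 0.269). Reads of DNAJB4 per read of DNAJB1 were 2.33, 1.60 and 1.49 in control and 1.27, 0.809 and 1.13 in knockdown libraries, without overlap (two-sided exact permutation p = 0.1). DNAJA1, the most abundant gene of the class and a partner of HSPA8, had 107, 105 and 90.7 CPM in control and 78.1, 78.7 and 88.7 CPM in knockdown libraries. Its groups came close but did not overlap, and the log2 fold change of -0.30 (SE 0.09) did not pass (edgeR adjusted p = 0.105). For the related DNAJA2 the groups did not overlap and the estimate was -0.32 (SE 0.08, edgeR adjusted p = 0.0638). DESeq2 and limma-voom called DNAJA2. DNAJB2, DNAJB5 and DNAJB6 had overlapping groups and estimates of -0.15 (SE 0.18), -0.28 (SE 0.21) and 0.01 (SE 0.16). DNAJA4, at 0 to 3 counts per library, was below the filter.

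Among HSP90 co-chaperones, 2 of 6 genes fell. CDC37, which delivers kinases to HSP90, had 65.7, 68.6 and 64.0 CPM in control and 44.5, 42.0 and 42.3 CPM in knockdown libraries. The spread was small in both groups (SD 2.34 and 1.37 CPM, n = 3), and the log2 fold change was -0.62 (SE 0.07, edgeR adjusted p = 0.00399). PTGES3, the p23 protein that stabilises the closed HSP90 dimer, had 63.8, 56.0 and 68.5 CPM against 44.1, 35.4 and 44.7 CPM (log2 fold change -0.60, SE 0.12, edgeR adjusted p = 0.0318). CDC37 kept its call without any 1 library and PTGES3 lost it each time (adjusted p from 0.0534 to 0.101). STIP1, which links HSP70 to HSP90 and was the most abundant gene of the class, had 102, 115 and 93.6 CPM against 81.9, 88.9 and 83.3 CPM, without overlap (log2 fold change -0.29, SE 0.09, edgeR adjusted p = 0.112). AHSA1, which speeds the ATPase of HSP90, and CHORDC1, an HSP90 binding protein, had log2 fold changes of -0.42 (SE 0.10) and -0.48 (SE 0.12). They did not pass (edgeR adjusted p = 0.052 and 0.0637), and their groups did not overlap. FKBP4, an immunophilin of steroid receptor complexes, had overlapping groups and an estimate of 0.01 (SE 0.14).

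None of the 5 HSP70 co-chaperones passed with edgeR. At an unadjusted p under 0.05, 2 were lower, and limma-voom called 1 and DESeq2 0. ST13, the HSP70-interacting protein Hip, had 88.0, 89.4 and 94.4 CPM in control and 70.6, 77.6 and 73.1 CPM in knockdown libraries, without overlap (log2 fold change -0.30, SE 0.07, edgeR adjusted p = 0.0528, limma-voom adjusted p = 0.0403). BAG3, an inducible exchange factor that works with HSPB8 in selective autophagy, went from a mean of 14.1 ± 0.54 CPM to 11.1 ± 1.04 CPM (SD, n = 3), also without overlap (log2 fold change -0.35, SE 0.13, edgeR adjusted p = 0.161). STUB1, the ubiquitin ligase CHIP, BAG1 and BAG2 had overlapping groups, with log2 fold changes of -0.34 (SE 0.27), 0.18 (SE 0.30) and 0.21 (SE 0.12). By GENCODE 29, 42.4% of the exon bases of STUB1 and 44.2% of those of BAG2 overlap genes on the opposite strand. The libraries keep strand by the labels' protocols, but whether the counting used it is not known here, so these values are uncertain.

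The transcripts of the heat shock factors themselves did not pass. HSF1, the main regulator of the heat shock response, had 6.49, 11.9 and 10.0 CPM in control and 8.90, 10.9 and 6.96 CPM in knockdown libraries (log2 fold change -0.06, SE 0.28, edgeR adjusted p = 0.927). HSF2, a related factor active in development, had 16.0, 11.4 and 16.9 CPM against 16.2, 12.6 and 15.0 CPM (log2 fold change -0.02, SE 0.18, edgeR adjusted p = 0.975). The groups of both genes overlapped, neither had an unadjusted p under 0.05, and DESeq2 and limma-voom called neither. At 26 to 52 counts per library, HSF1 was measured with little precision. The signs of both estimates changed when single libraries were left out.

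All 8 subunits of CCT had negative estimates, 2 of them past the threshold. Among all genes tested 49.2% had a negative estimate, and among the 3362 most abundant 58.8%. CCT2 had 126, 131 and 127 CPM in control and 103, 105 and 105 CPM in knockdown libraries (log2 fold change -0.29, SE 0.06, edgeR adjusted p = 0.0356), and CCT6A had 152, 142 and 138 CPM against 112, 109 and 121 CPM (log2 fold change -0.34, SE 0.08, edgeR adjusted p = 0.0441). These were small differences measured with little spread, and both calls were lost whichever 1 library was left out (adjusted p from 0.0758 to 0.147). TCP1 missed the threshold narrowly with 123.1, 124.8 and 126.1 CPM against 104.4, 102.2 and 106.1 CPM (log2 fold change -0.26, SE 0.06, edgeR adjusted p = 0.0502). CCT3, the most abundant subunit, had 193, 217 and 189 CPM against 164, 174 and 165 CPM, without overlap (log2 fold change -0.25, SE 0.08, edgeR adjusted p = 0.103). CCT8 and CCT7 had log2 fold changes of -0.42 (SE 0.11) and -0.24 (SE 0.07), and CCT4 and CCT5 of -0.12 (SE 0.07) and -0.14 (SE 0.10). In addition to CCT2 and CCT6A, DESeq2 called CCT8 and limma-voom called TCP1. Groups did not overlap for 6 of the 8 subunits, all lower in the knockdown, against 15.9% of all genes tested and 30.2% of the 3362 most abundant. CCT4 and CCT5 were the 2 with overlap. The counts of CCT5 are uncertain, since 30.1% of its exon bases overlap a gene on the opposite strand.

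The subunits enter the complex in equal numbers, so their transcript levels were also set side by side per kb of the principal transcript. In control libraries CCT3 was highest at 92.8 ± 6.97 CPM per kb (SD, n = 3) and CCT4 lowest at 33.6 ± 1.78, and the other 6 lay between 47.2 and 62.6. In knockdown libraries CCT3 stood at 77.9 ± 2.53 and CCT4 at 31.0 ± 1.21 CPM per kb, and the others between 41.7 and 52.3. The highest level was 2.53 to 3.19 times the lowest within a control library and 2.39 to 2.72 times within a knockdown library. CCT3 and CCT4 were the top and the bottom subunit in all 6 libraries, while the levels of TCP1, CCT5, CCT6A and CCT8 in the knockdown (41.7, 42.7, 41.9 and 42.9 CPM per kb) did not differ beyond their spread. These per-kb levels depend on the annotated transcript length.

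**Figure D4:**
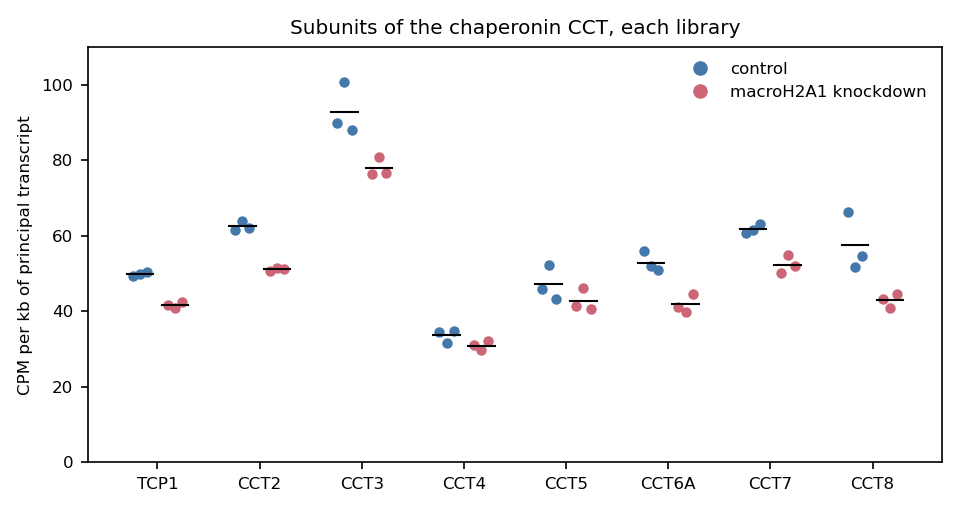
CPM per kb of the principal transcript (y axis) of the 8 CCT subunits in each control and knockdown library (points; bars are means, n = 3). CCT3 is highest and CCT4 lowest in both groups, and each subunit has a lower mean in the knockdown, with overlap only for CCT4 and CCT5.

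Among other genes of the same machinery, 1 passed the test. Of 85 further genes listed, 84 were in the files and 71 were tested. TUBB2A, a beta-tubulin, fell from 22.9, 27.7 and 27.5 CPM to 16.8, 18.7 and 16.6 CPM (log2 fold change -0.58, SE 0.11, edgeR adjusted p = 0.0285). It was the only one of the 71 past the threshold (1.41%), where 4.31% of all genes tested fell. None of the 71 rose, against 3.90% of all genes tested. An unadjusted p under 0.05 was found for 19, of which 4 were higher, with no share of all genes given here to set beside it. The call of TUBB2A held without control replicate 1 and was lost without any other library (adjusted p up to 0.0975). No gene was called with edgeR among 40 other HSP70, HSP90, DNAJ and co-chaperone genes, where the median log2 fold change was -0.07; 8 had an unadjusted p under 0.05, DESeq2 called 1 and limma-voom 0. HSF4 and HSF5, the other heat shock factors listed, were below the filter on low counts. Of 9 tested HSF1 targets listed beside them, edgeR, DESeq2 and limma-voom called 0, and 2 had an unadjusted p under 0.05. SERPINH1, the collagen chaperone of the endoplasmic reticulum and an HSF1 target, had 328, 359 and 366 CPM in control and 392, 435 and 394 CPM in knockdown libraries, higher without overlap but not past the threshold (log2 fold change 0.21, SE 0.08, edgeR adjusted p = 0.173). IER5, another of these targets, had 29.6, 31.8 and 35.4 CPM against 27.5, 22.8 and 28.4 CPM, lower without overlap (log2 fold change -0.30, SE 0.12, edgeR adjusted p = 0.175). Of the 9, 5 had negative and 4 positive estimates.

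Prefoldin hands unfolded actin and tubulin to CCT. Among 9 tested prefoldin and CCT partner genes edgeR called 0, DESeq2 1 and limma-voom 1, and 3 had an unadjusted p under 0.05, with a median log2 fold change of -0.23. PFDN5 had 77.4, 70.9 and 84.0 CPM in control and 95.5, 102 and 95.9 CPM in knockdown libraries (log2 fold change 0.34, SE 0.08, edgeR adjusted p = 0.0574), while PFDN1 had 19.0, 16.0 and 17.7 CPM against 10.9, 10.9 and 15.3 CPM (log2 fold change -0.52, SE 0.17, edgeR adjusted p = 0.116). The 2 subunits of the same complex thus had estimates of opposite sign, and in each the groups did not overlap. Of the 13 tested actin and tubulin genes that CCT folds, 12 had negative estimates, against 49.2% of all genes tested and 58.8% of the 3362 most abundant. The median log2 fold change of the 13 was -0.18. ACTG1, a cytoplasmic actin, had 1587, 1681 and 1627 CPM against 1313, 1385 and 1260 CPM, without overlap (log2 fold change -0.31, SE 0.08, edgeR adjusted p = 0.072). Whether the share of calls differs between these lists and the 47 chaperone genes was not tested.

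**Figure D5:**
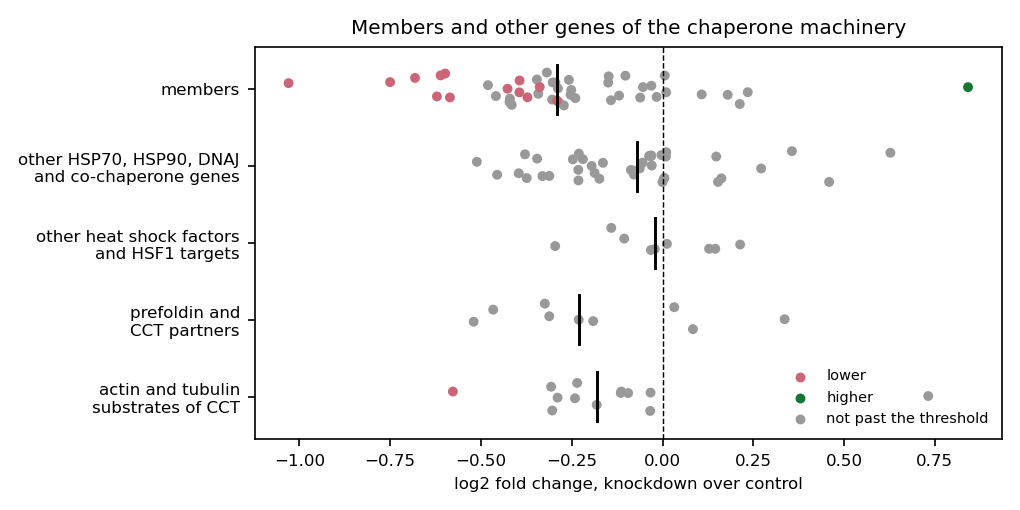
Log2 fold change of knockdown over control (x axis) for the 47 tested chaperone and heat shock genes (members) and for 4 lists of other genes of the machinery (71 genes); points are genes, spread vertically for visibility, and bars are medians. The median of the members is -0.29, those of the other lists lie between -0.23 and -0.02, and TUBB2A is the only gene past the threshold outside the members.

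The authors' deposited table, made from the same libraries with another test, holds 48 of the 50 genes. A total of 20 of these in the authors' deposited table have a negative log2 ratio and an adjusted p under 0.05, and HSPA2 has a positive one, with a log2 ratio of 0.85. Of all genes in the authors' deposited table, 6.57% are lower and 5.46% higher by that rule. HSPA4L, past the threshold with edgeR, is not among the 20. DNAJA1, DNAJA2, STIP1, CHORDC1, ST13, TCP1, CCT3 and CCT8 are among them and did not pass with edgeR.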

How the data were processed

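For each of the 6 libraries the authors deposited unnormalized counts of reads by Ensembl gene. CASAVA 1.7, GSNAP and HTSeq are named in the submitters' processing notes, with build hg19, and the deposited file names say union mode. Annotation, HTSeq version and strand use of the counting: not given in the sources used here. Reads without a unique alignment are not in the gene counts, which lowers genes with near-identical copies. Per the submitters' processing notes the authors also made a comparison table with DESeq 1.10.1, whose deposited columns hold a mean signal (counts over size factors), a fold ratio, its log2 and a p-value with its adjusted form; per the file names it holds protein-coding genes. Its log2 ratios and those from the counts correlate at r = 1.00 over the 48 genes it shares with the list, so its direction is knockdown over control.

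Lines that name no gene were left out, which leaves 11.9% to 13.7% of the reads listed. Of 57659 genes, 13445 passed filterByExpr (minimum count 10), were scaled with TMM and tested with edgeR 4.0.16 (glmQLFit, glmQLFTest, group as the only term) in R 4.3.3, with p-values adjusted over all of them and a threshold of 0.05. The standard error is the log2 fold change divided by the square root of F. CPM uses TMM-scaled library sizes, and levels per kb use the longest APPRIS principal transcript of GENCODE 29. The steps were tested on simulated counts in which 200 genes above a set level were changed by more than most genes reported here. Smaller changes, and a spread as wide as the common one of these data, were not simulated. The 16 other fits used 3 other scalings, 2 other filters, all genes but the 20 most abundant, only genes in the authors' table, the replicate number as a block, 5 of the 6 libraries, DESeq2 1.42.0, and limma-voom (limma 3.58.1); 2 other thresholds were also tried.

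The genes, classes and lists were chosen with earlier results of these data known. Named with values were every listed gene past the threshold, the most abundant gene of each class, HSF1 and HSF2; other genes named were chosen after their values were seen. Symbols came from a gene name table and GENCODE 29, which is on another build than hg19, so gene coordinates are given only for RefSeq promoter windows on GRCh38.p14.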

Additional observations from a re-analysis of the deposited data

How the results depend on the processing

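All 14 called chaperone genes kept their direction in all 16 alternative fits, and HSP90AA1, HSPA2, DNAJB4 and CDC37 kept their call in all of them. The count of genes that fell (13) became 23 when only genes of the authors' table were tested, 4 with the replicate block, 4 to 5 with 1 library left out, 4 at an adjusted p under 0.01 and 20 under 0.10; HSPA2 was the gene called higher in each. In the same order, calls among all genes (1104 of 13445 tested) became 2042 of 10478, 416, 427 to 564, 317 and 1881. With 1 library left out 13838 to 13968 genes were tested, and with the block or another threshold 13445. Calls among the 71 other genes of the machinery (1) became 13, 0, 0 to 2, 0 and 6, and 2 with plain library sizes, 3 with DESeq2 and 3 with limma-voom. With DESeq2 size factors, upper-quartile scaling and plain library sizes, 13, 10 and 10 chaperone genes fell. Calls among all 13445 genes were then 1090, 1079 and 988. With a filter of at least 1 count 9 fell (1278 of all 32553 genes called). A filter of at least 20 counts in total left 9 that fell (896 of 17170 called). Without the 20 most abundant genes 13 fell (1085 of 13466 called), with DESeq2 14 (1277 of 13445) and with limma-voom 16 (1219 of 13445). Fewer calls with a library left out go with fewer samples. The cause of the other differences was not tested. Whether the replicate numbers pair the libraries is not known here. Deviations of same-numbered libraries correlated at -0.03, -0.02 and -0.17, and those of other pairs at -0.14 to 0.17. These correlations cannot exclude a shared batch. With the block HSPD1 reached an adjusted p of 0.0506. HSF2 (log2 fold change -0.02) became 0.0016 with upper-quartile scaling, 0.0045 with genes of the authors' table only and -0.17 to 0.0824 with 1 library left out. HSF1 (-0.06) became 0.0301 with limma-voom and -0.29 to 0.14 with 1 library left out. HSPA6 (0.63) became -0.48 with the replicate block, -0.51 with limma-voom and -1.86 to 1.14 with 1 library left out. Depth limits the scarce genes: CRYAB, HSPB7 and DNAJA4 could not be tested.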

Other observations

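HSPA6, a heat-inducible HSP70 gene that is among the other genes of the machinery, differed widely between the knockdown libraries. It had 190, 122 and 124 counts in control libraries (30.1, 27.9 and 32.8 CPM), against 48, 566 and 26 counts in knockdown libraries. The lowest and highest of the latter correspond to 6.96 and 123.1 CPM. Knockdown replicate 2 was thus far above all control libraries and the other 2 knockdown libraries below all of them. With all libraries the log2 fold change was 0.63 (SE 0.99, edgeR adjusted p = 0.752), and without knockdown replicate 2 it was -1.86 (edgeR adjusted p = 0.0083). This gene was singled out after its values were seen. The inducible genes HSPA1A, HSPA1B and DNAJB1 did not show such a difference in that library, with 10.2, 7.61 and 37.6 CPM. TOMM70, a mitochondrial import receptor that binds HSP70 and HSP90, was also highest there, with 179 CPM against 73.2 and 72.3 CPM in the other knockdown libraries and 75.2 to 82.2 CPM in control libraries. The near-identical pseudogene HSPA7 had at most 1 count in any library.

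Reads were also listed on named pseudogene copies of the chaperone genes. The 17 copies of HSPA8 took 1186 reads in the control and 1131 in the knockdown group, beside 19530 and 13919 for HSPA8. The 17 copies of ST13 took 321 and 296 reads, beside 1304 and 987, and the copy of CCT8 took 141 and 137, beside 1706 and 1150. The 23 copies of HSPE1 took 55 and 32 reads, beside 281 and 194. These genes were chosen after their values were seen. The values are sums of raw counts over 3 libraries a group, the knockdown group being the less deeply sequenced, and whether reads of a gene were placed on its copies was not tested.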
